A study of Mus musculus with 36 samples.

Results

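Transcripts of 9 enzymes that remove hydrogen peroxide were followed in mouse brain: catalase (Cat), the glutathione peroxidases Gpx1 and Gpx4, and the peroxiredoxins Prdx1, Prdx2, Prdx3, Prdx4, Prdx5 and Prdx6. They were chosen by symbol, because monoamine oxidase makes hydrogen peroxide when it oxidises an amine, and all 9 were found among the 19025 genes of the expression table. Libraries labelled KI came from C57 mice with a knock-in at Maoa; the series title names a synonymous change at rs1137070 and states that Maoa transcription and translation are lowered. Libraries labelled WT came from wild-type C57 mice, and both genotypes were 6 to 7 weeks old. RNA came from 6 brain regions labelled HP, PFc, Nac, STR, SN and VTA, with 3 KI and 3 WT libraries in each, 36 in all. The labels do not spell the regions out, name no sex, and leave unsaid whether the libraries of a group are from different animals; p-values here measure only the spread between libraries, which may be technical.

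Hydrogen peroxide is a product of monoamine oxidase at the mitochondrial outer membrane, of superoxide dismutases, and of oxidases in peroxisomes and the endoplasmic reticulum. Catalase splits it in peroxisomes without a cofactor that has to be recycled. Glutathione peroxidases reduce it with glutathione, and peroxiredoxins with thioredoxin in most cases, through a reactive cysteine. The members divide the cell between them: Gpx1 and Prdx1, Prdx2 and Prdx6 work mainly in the cytosol, Prdx3 in mitochondria, Prdx4 in the endoplasmic reticulum, and Prdx5 in several compartments. Gpx4 reduces lipid peroxides inside membranes and holds off ferroptosis.

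The part of each coding sequence around the catalytic codon shows how the peroxidases are built, and is given here because the families and the near-identical members can be read from it. Each stretch runs from 5 codons before to 5 codons after the catalytic codon, which stands in capitals, 5′ to 3′ on the coding strand (GENCODE M21, GRCm38). In Gpx1 and Gpx4 the capitals mark a stop codon that is read as selenocysteine, and in the peroxiredoxins they mark the codon of the peroxide-reacting cysteine.
Gpx1: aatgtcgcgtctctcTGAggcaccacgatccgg
Gpx4: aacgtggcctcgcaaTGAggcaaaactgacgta
Prdx1: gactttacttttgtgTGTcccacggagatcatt
Prdx2: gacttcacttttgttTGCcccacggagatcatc
Prdx3: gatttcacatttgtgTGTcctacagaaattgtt
Prdx4: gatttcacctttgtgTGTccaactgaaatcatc
Prdx5: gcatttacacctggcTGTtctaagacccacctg
Prdx6: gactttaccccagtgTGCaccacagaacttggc
The capitals lie at codon 47 of Gpx1 (chromosome 9), codon 129 of the longest Gpx4 coding sequence (chromosome 10), codon 52 of Prdx1 (chromosome 4), codon 51 of Prdx2 (chromosome 8), codon 109 of Prdx3 (chromosome 19), codon 127 of Prdx4 (chromosome X), codon 99 of Prdx5 (chromosome 19) and codon 47 of Prdx6 (chromosome 1). Prdx1 and Prdx2 shared 29 of the 33 bases, and Prdx3 and Prdx4 shared 27. Prdx6, whose catalytic cycle uses a single cysteine, shared 20 or 21 bases with these 4 genes. Prdx5 shared 14 to 16 with the other peroxiredoxins, and Gpx1 and Gpx4 shared 19. Catalase, on chromosome 2, uses a haem iron and has no stretch of this kind.

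Libraries held between 15145631 and 18863503 estimated counts, and every member was counted at least 139 times in every library. The totals were mostly lower in KI, at 15145631 to 17452959, than in WT, at 17275279 to 18863503. The part of this difference in the genotype comparisons was not tested. The mean abundance over the 36 libraries, in TPM, which corrects for transcript length, was highest for Gpx4 at 1227 ± 309 TPM (SD, n = 36), rank 108 of 19025 genes. Prdx5 followed at 515 ± 114 TPM, Prdx2 at 412 ± 43.9 TPM, Prdx1 at 319 ± 52.2 TPM and Prdx6 at 311 ± 45.9 TPM. Gpx1 averaged 220 ± 66.2 TPM and Prdx3, the peroxiredoxin of mitochondria, 129 ± 20.2 TPM. The lowest members were Cat at 55.1 ± 9.41 TPM (rank 3271) and Prdx4 at 51.9 ± 13.8 TPM (rank 3439). The neighbours Prdx1 and Prdx6, and Cat and Prdx4, differed by less than their SDs.

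**Figure D1:**
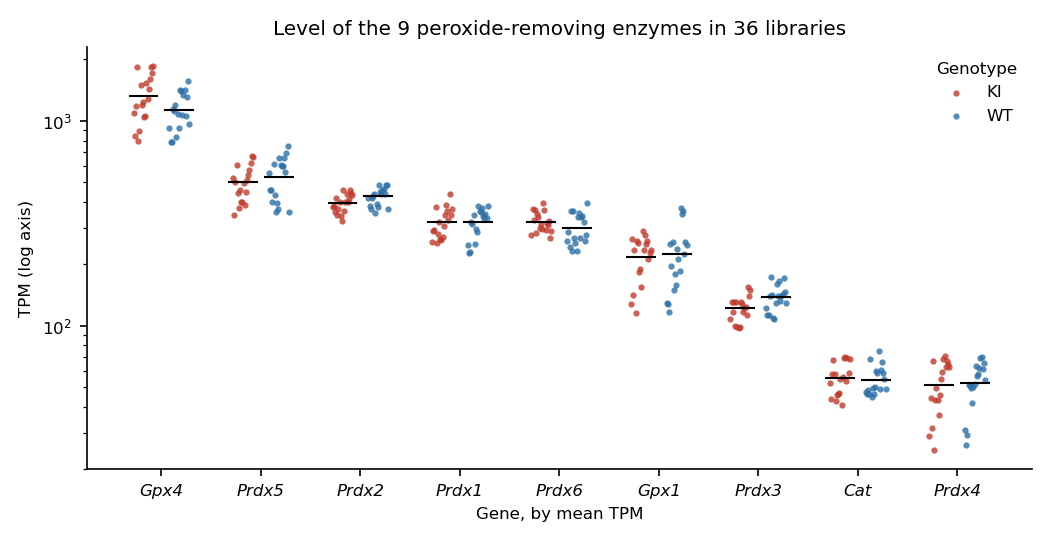
Abundance of each member in TPM (log axis) in the 18 KI libraries (red, left) and the 18 WT libraries (blue, right); each point is a library and the bar is the mean. Gpx4 lies above the other members in mean, and Cat and Prdx4 lie lowest, at 55.1 and 51.9 TPM over all libraries.

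Across the 36 libraries the members differed in how far they ranged. On the CPM scale (counts scaled to a common library total after TMM normalisation over all libraries, used for every level that follows), the highest library held 3.83 times the lowest for Gpx1, 3.37 times for Prdx4, 2.97 times for Gpx4 and 2.68 times for Prdx5. The range was 1.75 times for Prdx2, 1.83 times for Prdx3 and 1.86 times for Cat.

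Marker genes were read before the genotypes were compared. By lists of region markers, 8 of the 36 libraries were short of their own region's list. In 7 of them another region's list stood high: KI HP 2, KI Nac 1, KI Nac 2, KI SN 1, KI SN 2, WT Nac 2 and WT VTA 3. The other is KI STR 3, whose striatal markers summed to 622 CPM, against 2231 to 7473 CPM in the other STR libraries of both genotypes; its dopamine markers, at 184 CPM against 36.4 to 50.3 CPM, stayed below the level of SN and VTA libraries. KI PFc 1 also carried striatal genes, with 10 markers summing to 2402 CPM, against 396 to 637 CPM in WT PFc. So did KI SN 3, at 1259 CPM against 315 to 400 CPM in WT SN, beside its own region's markers. None was relabelled or dropped, and a described difference that moves by over 1.5 times or turns direction without the 8 libraries is also given without them. In Nac and SN such values rest on KI Nac 3 and KI SN 3 alone among the KI libraries. In bulk tissue, fewer cells of a type and less RNA per cell cannot be told apart. Maoa, the targeted gene, was not lower in KI past edgeR's test in any region: its log2 fold change ran from -0.36 in SN to 0.46 in STR and was 0.13 over the summed regions, with no adjusted p below 0.284. With region as a term over the other 28 libraries, taken as independent, Maoa was called higher in KI (0.18, adjusted p = 0.0106), against the lowering that the title states.

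Among the 18 WT libraries the enzymes were unevenly spread over the regions, with Gpx1 and Prdx4 the most uneven. Of the 9 members, 7 differed between regions by edgeR's F test at an adjusted p under 0.05, where 48.0% of all 15094 tested genes did. The exceptions were Prdx2 (adjusted p = 0.0806) and Prdx6 (adjusted p = 0.187). Without WT Nac 2 and WT VTA 3 all 9 differed, against 70.0% of genes. Without all WT libraries numbered 1, or all numbered 2, only 3 members did, Gpx1 and Prdx4 both times with Prdx1 or Cat, against 14.2% and 25.3% of genes.

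Gpx1, the cytosolic glutathione peroxidase, stood at 163, 145 and 136 CPM in WT STR, and at 52.0, 47.4 and 42.6 CPM in WT HP. STR lay above every other region without overlap, and HP below every other region, though its highest library nearly met the lowest of PFc, 52.1 CPM, a 3.13-fold difference in mean (adjusted p = 3.95e-05 over the 6 regions). Between them, VTA (102 ± 12.5 CPM), Nac (91.4 ± 16.4 CPM) and SN (84.8 ± 18.5 CPM) overlapped, and PFc (60.3 ± 9.38 CPM) overlapped SN. The WT STR libraries also held choroid plexus markers (8 genes) at a sum of 11166 to 16271 CPM, against 16.3 to 1438 CPM in the other WT libraries, and thalamic markers at 472 to 1299 CPM, against 91.1 to 881 CPM. The part of these markers in the levels of members in STR was not tested.

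Prdx4, the peroxiredoxin that sits where secreted proteins are oxidatively folded, had the next widest spread. It stood at 25.3 ± 1.33 CPM in WT STR, 23.5 ± 3.53 CPM in VTA and 21.9 ± 3.23 CPM in SN, which overlapped. Nac (18.1 ± 0.668 CPM) and PFc (16.4 ± 2.60 CPM) lay lower, and HP was lowest and apart at 10.0 ± 1.28 CPM. The means of STR and HP differed 2.53-fold (adjusted p = 7.18e-05).

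The other members shared part of this order with smaller differences. PFc or HP had the lowest mean for all 9 members, and STR, SN or VTA the highest, except that Prdx6 was highest in Nac once WT Nac 2 and WT VTA 3 were left out. Prdx5 averaged 328 ± 128 CPM in WT VTA and 181 ± 19.8 CPM in WT PFc (1.82-fold, adjusted p = 0.039), where WT VTA 3, with striatal markers, held 187 CPM and the other WT VTA libraries 363 and 435 CPM. Gpx4 ran from 388 ± 109 CPM in VTA to 231 ± 37.2 CPM in HP (1.68-fold, adjusted p = 0.0431), with every neighbouring pair of regions overlapping. Prdx1, an abundant thioredoxin-dependent enzyme of the cytosol, ran from 220 ± 9.61 CPM in VTA to 130 ± 13.3 CPM in HP (1.68-fold, adjusted p = 0.00138). Prdx3 fell into 2 sets that did not overlap: VTA, SN, Nac and STR at means of 84.8 to 93.6 CPM, and HP and PFc at 66.2 and 64.8 CPM (adjusted p = 0.00531). Cat was highest in SN, at 74.6 ± 3.65 CPM, and lowest in HP, at 52.5 ± 2.67 CPM (1.42-fold, adjusted p = 0.0168).

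**Figure D2:**
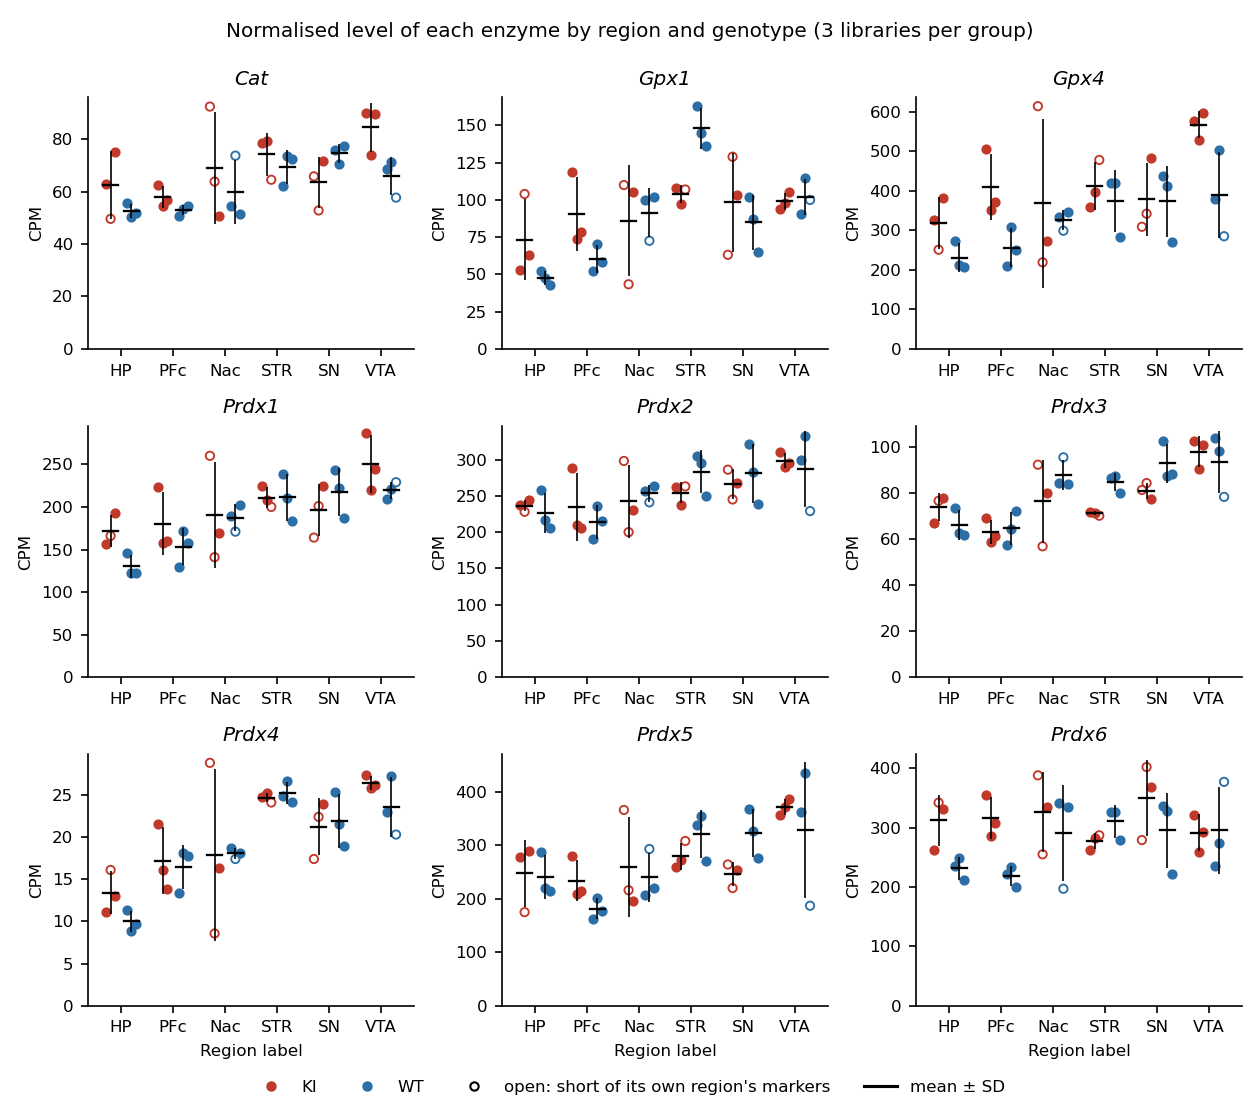
Normalised level (CPM) of each member in every library, by region, with KI (red) left of WT (blue); bars are mean ± SD of 3 libraries and open circles mark the 8 libraries short of their own region's markers. Gpx1 in WT STR (136 to 163 CPM) lies above all other WT libraries. KI Nac is spread widely for most members, mostly through its open circles.

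Between genotypes, no member passed edgeR's test in any region. In each of the 6 regions, and over the sums of the 6 regions per genotype and library number, 0 of 9 members had an adjusted p under 0.05, and so did 0% of all tested genes. DESeq2 called Prdx6 higher in KI PFc, where it called 2.74% of genes, Gpx1 lower in KI STR, where it called 1.38%, and Prdx6 higher in KI over the sums, where it called 8.88%. Of the 54 values of a member in a region, 36 were above 0 and 18 below, from -0.49 (Gpx1 in STR) to 0.70 (Gpx4 in PFc). Unadjusted p-values under 0.05 stood at 4 of 9 members in HP (14.2% of all genes), 4 in PFc (18.1%), 2 in STR (10.8%), 2 in VTA (13.0%), and 0 in Nac (1.02%) and SN (17.6%).

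HP had the highest median log2 fold change over the 9 members, 0.39, followed by PFc at 0.26, VTA at 0.20, Nac at 0.02, SN at -0.07 and STR at -0.15. Without the 8 libraries the medians were 0.29 in HP, 0.11 in VTA, 0.05 in SN, -0.13 in Nac and -0.18 in STR, so that Nac and SN turned direction. Over all tested genes the medians lay between -0.01 (VTA) and 0.03 (PFc). All KI libraries lay above all WT libraries for 3 members in HP (12.4% of all genes), 5 in PFc (12.2%) and 2 in VTA (9.18%). All KI libraries lay below all WT libraries for 2 members in STR (9.37% of genes) and 2 in SN (13.0%), and for none in the other regions. In Nac the groups overlapped for all 9 members, where 4.10% of genes were apart in either direction.

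**Figure D3:**
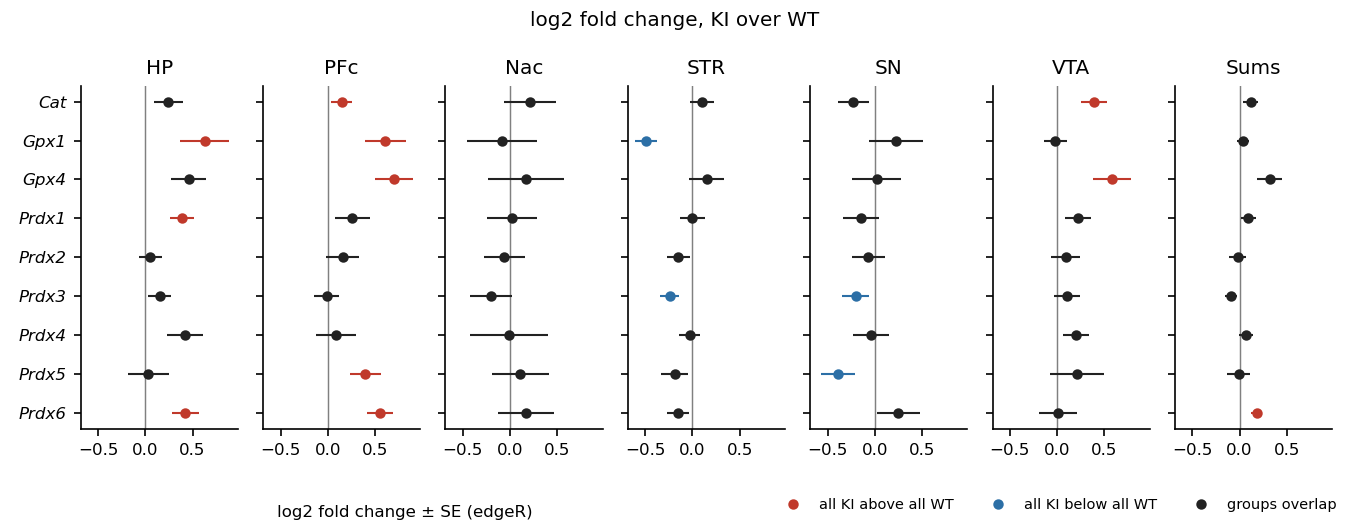
Log2 fold change of KI over WT (± SE, edgeR) for each member in each region and over the summed regions; red points mark members whose 3 KI values all lie above the 3 WT values, blue points those that all lie below. The red points gather in HP and PFc, Gpx1 is red there and blue in STR (0.63, 0.61 and -0.49), and no point passed edgeR's adjusted test.

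Gpx1 had its KI libraries above those of WT in HP and PFc and below them in STR. In HP it stood at 53.0, 104 and 63.0 CPM in KI, against 52.0, 47.4 and 42.6 CPM in WT (log2 fold change 0.63, SE 0.261, adjusted p = 0.349). The KI HP value of 104 CPM belongs to KI HP 2, which carries striatal markers, and without it the log2 fold change was 0.29 (adjusted p = 0.228). In PFc Gpx1 stood at 119, 73.9 and 78.2 CPM in KI, against 52.1, 70.5 and 58.3 CPM in WT (0.61, SE 0.220, adjusted p = 0.231), and the 119 CPM belongs to KI PFc 1, without which the value was 0.35. In both regions every KI library was above every WT library, narrowly in HP.

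In STR, the region where WT libraries held most Gpx1, it stood at 108, 97.2 and 107 CPM in KI, against 163, 145 and 136 CPM in WT. All KI libraries lay below all WT libraries (log2 fold change -0.49, SE 0.119, edgeR adjusted p = 0.29). DESeq2 gave -0.51 (adjusted p = 0.0382), and the authors' deposited table gives -0.51 with a q-value of 0.0445. Without KI STR 3 the value was -0.53 (edgeR adjusted p = 0.334). Choroid plexus, striatal and erythroid markers moved the same way in STR. Some other lists went the opposite way: 7 of 7 endothelial markers, 8 of 10 astrocyte markers and 71 of 77 ribosomal protein genes were higher in KI. Choroid plexus markers summed to 3589 to 10723 CPM in KI STR, against 11166 to 16271 CPM in WT STR, with no overlap and 0 of 8 markers higher in KI (median log2 fold change -0.55). The 10 striatal markers summed to 622 to 3102 CPM in KI STR, against 2231 to 7473 CPM in WT STR, with 0 of 10 higher. Erythroid markers summed to 201 to 268 CPM in KI STR, against 262 to 458 CPM in WT STR, with 0 of 5 higher. Across the 36 libraries, after taking out group means, the Pearson correlation of Gpx1 was 0.69 with the striatal list and 0.61 with the erythroid list. It was -0.23 with the choroid plexus list, 0.84 with the ribosomal protein list and -0.78 with the hippocampal list. The part of these lists in the Gpx1 difference was not tested.

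Gpx4, the lipid peroxide enzyme, had its largest differences in PFc and VTA. In PFc it stood at 506, 352 and 371 CPM in KI, against 210, 308 and 249 CPM in WT, with no overlap (log2 fold change 0.70, SE 0.204, adjusted p = 0.21). In VTA it stood at 576, 529 and 596 CPM in KI, against 379, 502 and 285 CPM in WT, again with no overlap (0.58, SE 0.203, adjusted p = 0.374). The 285 CPM belongs to WT VTA 3, and without it the log2 fold change was 0.40 (adjusted p = 0.0829). In HP, Gpx4 overlapped, at 325, 251 and 382 CPM in KI and 274, 213 and 206 CPM in WT (0.46, SE 0.186, adjusted p = 0.346). Only the 251 CPM of KI HP 2 overlapped WT, and without that library the log2 fold change was 0.61 (adjusted p = 0.0716). Over the sums its log2 fold change was 0.32 (SE 0.130, adjusted p = 0.226).

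Prdx6, which also has a phospholipase activity and is a marker of astrocytes among brain cells, was called higher in KI under more of the alternatives than any other member. In PFc it stood at 355, 286 and 307 CPM in KI, against 222, 234 and 200 CPM in WT. The groups were far apart relative to their spread (log2 fold change 0.55, SE 0.137), yet edgeR's adjusted p was 0.208, the smallest of the 54 values. DESeq2 called it (0.54, adjusted p = 0.0262), as does the authors' deposited table (0.54, q-value 0.0341). Without KI PFc 1, edgeR called it too (0.45, adjusted p = 0.0486), in a fit that called 550 genes. In HP, Prdx6 stood at 263, 342 and 332 CPM in KI, against 235, 249 and 211 CPM in WT, with no overlap (0.42, SE 0.143, adjusted p = 0.313).

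Averaged over the regions, Prdx6 stood at 312 ± 8.04 CPM in KI and 274 ± 7.79 CPM in WT (SD, n = 3 library numbers each), with no overlap, as for 12.3% of genes in that direction. The log2 fold change was 0.18 (SE 0.0596, edgeR adjusted p = 0.168, DESeq2 adjusted p = 0.0414). In the remaining regions the values were 0.25 in SN, 0.17 in Nac, 0.01 in VTA and -0.15 in STR. Without the libraries short of their own markers they were 0.33 in SN, -0.02 in Nac, 0.23 in VTA and -0.19 in STR. Of the other members only Gpx4 had an unadjusted p under 0.05 over the sums (19.9% of all genes had one), and the remaining 7 lay between -0.09 and 0.12.

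When region was entered as a term and the fit limited to the 28 libraries that carried their own region's markers, taken as independent, 3 members were higher in KI: Gpx4 by 0.37 (adjusted p = 0.0234), Prdx6 by 0.24 (adjusted p = 0.0483) and Cat by 0.18 (adjusted p = 0.0157). In this fit, chosen after the data were seen, 16.7% of all 15687 genes were called, 9.04% as higher in KI. The same fit over all 36 libraries called none of the 9, and 1455 of all 15367 genes.

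Prdx1, whose counts may include reads of a pseudogene and of an overlapping long noncoding gene, stood at 156, 166 and 193 CPM in KI HP, against 146, 123 and 122 CPM in WT HP. The groups did not overlap (log2 fold change 0.39, SE 0.127, adjusted p = 0.313). In the other regions they overlapped, with values from -0.15 in SN to 0.26 in PFc. Without the libraries short of their own markers Prdx1 stood at 0.05 in SN and -0.22 in Nac, against 0.02 in Nac with all libraries.

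Cat stood at 90.0, 73.8 and 89.6 CPM in KI VTA, against 68.6, 71.3 and 57.7 CPM in WT VTA. Every KI library was higher (log2 fold change 0.39, SE 0.135, adjusted p = 0.374), and without WT VTA 3 the value was 0.31 (adjusted p = 0.119). Cat in PFc was also apart but by little, at 62.4, 54.6 and 56.8 CPM in KI and 50.8, 53.5 and 54.5 CPM in WT (0.15, SE 0.112, adjusted p = 0.475).

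Prdx3, of mitochondria, had all KI libraries below all WT libraries in STR and SN. In STR it stood at 71.9, 71.7 and 70.3 CPM in KI, against 86.5, 87.6 and 80.3 CPM in WT (log2 fold change -0.24, SE 0.0994, adjusted p = 0.445). In SN it stood at 81.5, 84.5 and 77.6 CPM in KI, against 103, 87.7 and 88.6 CPM in WT (-0.20, SE 0.143, adjusted p = 0.511). The 3 KI STR libraries were close together (SD 0.841 CPM). Choroid plexus markers were apart in the same direction in STR, and 9 of 10 oligodendrocyte markers were lower in KI SN by the fit. In KI SN 3, the only KI SN library with its own region's markers, oligodendrocyte markers summed to 25113 CPM, above all WT SN libraries. KI SN 3 also held striatal markers at 1259 CPM, against 315 to 400 CPM in WT SN. The part of these markers in the Prdx3 values was not tested.

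Prdx5, found in mitochondria, peroxisomes and the cytosol, was apart in opposite directions in PFc and SN. In PFc it stood at 279, 209 and 214 CPM in KI, against 163, 202 and 178 CPM in WT (log2 fold change 0.40, SE 0.164, adjusted p = 0.267), and without KI PFc 1 the value was 0.23. In SN it stood at 264, 220 and 254 CPM in KI, against 367, 326 and 276 CPM in WT (-0.39, SE 0.178, adjusted p = 0.306), where KI SN 1 and KI SN 2 carry markers of other regions and the value without them was -0.34. Its gene overlaps Trmt112, and 94.4% of its estimated counts were not whole, so reads may have been divided between them.

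Prdx2 and Prdx4 overlapped between genotypes in every region. Prdx2, the peroxiredoxin known from red cells and neurons, had log2 fold changes from -0.15 in STR to 0.16 in PFc. Prdx4 had its largest value in HP, at 11.1, 16.1 and 13.0 CPM in KI and 11.4, 8.87 and 9.75 CPM in WT (0.42, SE 0.192, adjusted p = 0.376). The 16.1 CPM belongs to KI HP 2, without which the value was 0.26 (adjusted p = 0.4). In Nac, KI libraries of Prdx4 ran from 8.57 to 28.8 CPM, against 17.4 to 18.7 CPM in WT, and the 2 extreme KI libraries are those that carry other regions' markers.

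Genotype by region, the test of whether the KI difference varied among the 6 regions, called 0 of 9 members and 0% of all 15367 genes in edgeR's fit to 12 groups; 0 members and 8.73% of genes had an unadjusted p under 0.05. Gpx1 had the smallest p of the members, 0.0582 (adjusted p = 0.563). The opposite directions of Gpx1 and Prdx5 are therefore given as values.

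Marker and ribosomal protein genes also stood at different levels in the genotypes, though edgeR called none of them in any region. DESeq2 called 38 of 77 ribosomal protein genes and 7 of 10 oligodendrocyte markers higher in KI HP, and 259 of 11774 genes there. In KI PFc it called 25 of 77 ribosomal protein genes and 7 of 10 microglial markers higher (2.74% of genes called). Over the sums it called 70 of 78 ribosomal protein genes higher (8.88%). Of the ribosomal protein, oligodendrocyte and microglial lists it called 0 lower there. Of the 8 neuronal markers it called 2 lower over the sums, 1 lower in STR and 1 lower in VTA. In SN it called 2 of 8 neuronal markers lower and 1 higher. In HP the 79 ribosomal protein genes summed to 19563 to 26369 CPM in KI and 13448 to 17394 CPM in WT, and all 77 tested were higher in KI (median log2 fold change 0.64). Microglial markers there summed to 642 to 668 CPM in KI and 362 to 490 CPM in WT, 10 of 10 higher, and oligodendrocyte markers to 10092 to 13127 CPM in KI and 4057 to 5119 CPM in WT, 10 of 10 higher. Neuronal markers in HP summed to 4118 to 7378 CPM in KI and 7314 to 8210 CPM in WT, 7 of 8 lower (median -0.41). The 4118 CPM belongs to KI HP 2, which carries striatal markers, and KI HP 1 and KI HP 3 held 7378 and 6078 CPM. In PFc the ribosomal protein genes summed to 21404 to 28518 CPM in KI and 12934 to 18806 CPM in WT, all 77 higher (median 0.63). Microglial markers in PFc summed to 859 to 1055 CPM in KI and 494 to 715 CPM in WT, and astrocyte markers to 5014 to 9806 CPM in KI and 5530 to 6609 CPM in WT, each 10 of 10 higher in KI by the fit. In VTA, endothelial markers summed to 442 to 451 CPM in KI and 253 to 325 CPM in WT, 7 of 7 higher, and oligodendrocyte markers to 25023 to 36266 CPM in KI and 13801 to 19161 CPM in WT, 10 of 10 higher. In SN, where Prdx3 and Prdx5 were apart, oligodendrocyte markers summed to 2728 to 25113 CPM in KI and 15526 to 19160 CPM in WT. By the fit 9 of 10 were lower in KI (median -0.81). The 2728 CPM belongs to KI SN 1, which is short of its own region's markers. The 25113 CPM, above all WT SN libraries, belongs to KI SN 3, the only KI SN library that carries its own region's markers. KI SN 3 also held striatal markers at 1259 CPM, against 315 to 400 CPM in WT SN. Its choroid plexus markers summed to 429 CPM, against 16.3 to 66.5 CPM in WT SN. Neuronal markers in SN summed to 4132 to 7049 CPM in KI and 6348 to 7292 CPM in WT, 5 of 8 lower (median -0.62), while 76 of 77 ribosomal protein genes were higher (median 0.44). The 4132 CPM belongs to KI SN 2 and the 7049 CPM to KI SN 1, both short of their own region's markers. Neuronal markers in KI SN 3 summed to 5442 CPM. In STR, beside the choroid plexus markers, oligodendrocyte markers summed to 19112 to 25601 CPM in KI and 13554 to 16410 CPM in WT, 6 of 10 higher, and 71 of 77 ribosomal protein genes were higher (median 0.16). Over the sums 78 of 78 ribosomal protein genes were higher (median 0.35). No gene of these lists was at 0 in all libraries of a group, and their part in the members' differences was not tested.

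**Figure D4:**
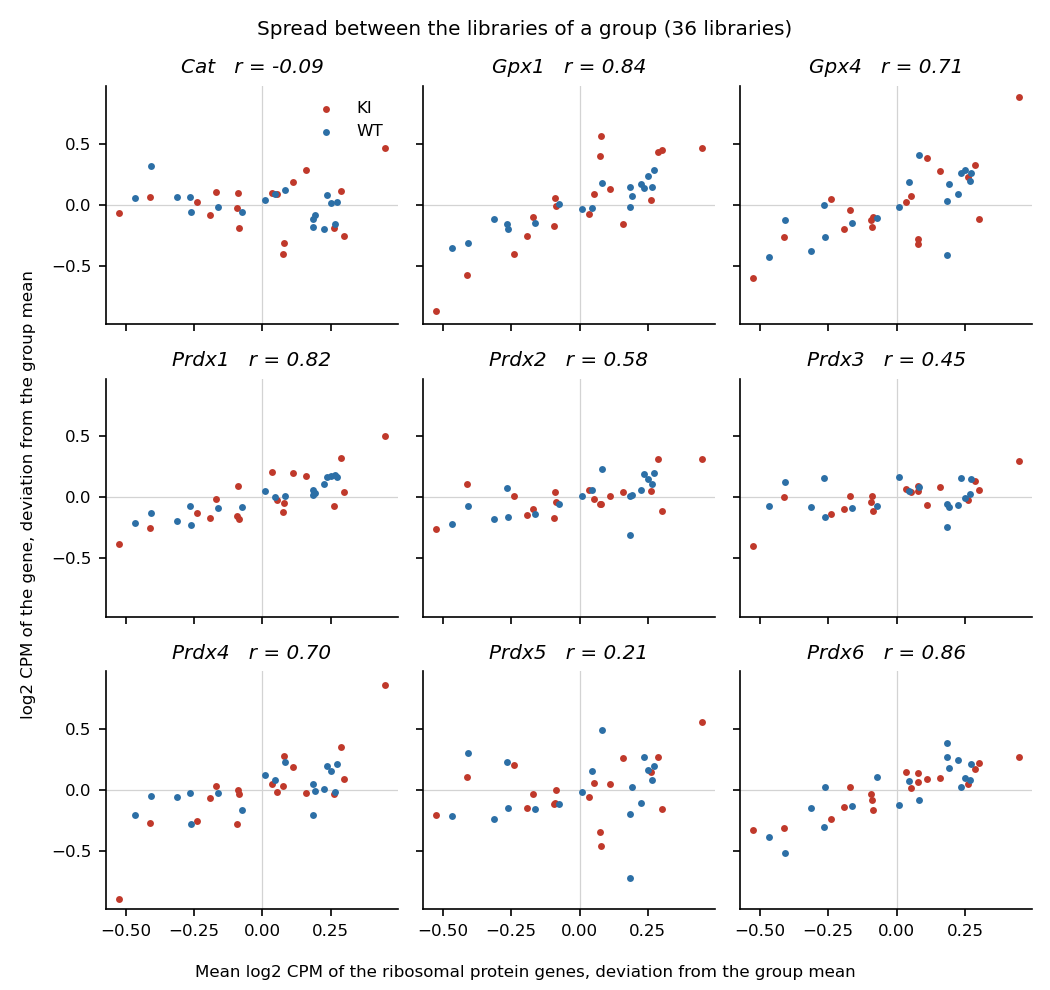
Deviation of each member's log2 CPM from its group mean (vertical) against the same deviation of the mean log2 CPM of the ribosomal protein genes (horizontal), for 18 KI (red) and 18 WT (blue) libraries; r is Pearson's correlation over the 36. Prdx6, Gpx1 and Prdx1 lie along a rising line (0.86, 0.84 and 0.82), and Cat does not (-0.09). Libraries short of their own region's markers are included.

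Within groups, the members differed in how closely they followed the ribosomal protein genes from library to library. After group means were taken out, the Pearson correlation over 36 libraries was 0.86 for Prdx6, 0.84 for Gpx1, 0.82 for Prdx1, 0.71 for Gpx4 and 0.70 for Prdx4. It was 0.58 for Prdx2, 0.45 for Prdx3, 0.21 for Prdx5 and -0.09 for Cat. With the microglial list Prdx6 gave 0.80 and Gpx1 0.56, and with the astrocyte list Prdx6 gave 0.32. With the neuronal list Prdx6 gave -0.72, and Cat and Prdx5 gave 0.51 and 0.55. These values are descriptive and carry no test, and the part of library preparation or depth in them was not tested. The 8 libraries short of their own region's markers are included, so differences in region content remain in the deviations from group means. No correlation was taken without them.

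Among themselves the closest members within groups were Gpx4 with Prdx2 (0.84), Prdx4 with Gpx1 (0.81), Gpx4 with Prdx1, Prdx4 with Prdx1 and Prdx4 with Prdx3 (each 0.80), and Gpx4 with Prdx5 (0.79), while Prdx6 gave -0.15 with Prdx5 and -0.23 with Cat. Over the 36 libraries, among 10482 genes whose mean log2 CPM was 3 or more, the genes most like each member were Cox4i1 (0.96) and Atp5e (0.95) for Gpx4, and Uqcrfs1 and Suclg1 (both 0.95) for Prdx5. Atp5o and Cox6b1 (both 0.94) were most like Prdx2, and Rhoa (0.94) and Syf2 (0.93) most like Prdx1. For Gpx1 they were Ctsz (0.92) and Rasgrp2 (0.90), for Prdx6 Ftl1 (0.91) and Cst3 (0.90), and for Prdx4 Cd320 (0.91) and Aldh9a1 (0.89). For Cat they were Ctsl (0.89) and D3Ertd751e (0.88), and for Prdx3 Fbxo7 (0.89) and Hibadh (0.88). Cox4i1, Atp5e, Atp5o, Cox6b1 and Uqcrfs1 encode subunits of the respiratory chain or ATP synthase, Ctsl and Ctsz are lysosomal cathepsins, and Ftl1 is the ferritin light chain.

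The enzymes that serve or feed the members did not pass edgeR's test either. Of the thioredoxin and glutathione recycling genes (18), the other glutathione peroxidases (5 tested of 6), the sources of peroxide (16), the Nfe2l2 targets (12), the selenoprotein synthesis genes (8) and the peroxisome import genes (13), 0 were called over the sums in either direction. DESeq2 called 8.88% of all genes over the sums. In the lists it called 1 lower among the recycling genes, 1 higher among the other glutathione peroxidases and 1 higher among the sources. It called 2 higher among the Nfe2l2 targets, 1 lower among the import genes and none in selenoprotein synthesis. The smallest adjusted p-values among the genes named from these lists belonged to the ferritin chains that store iron, which Nfe2l2 controls: Fth1 averaged 3605 ± 1354 CPM in KI and 2467 ± 757 CPM in WT (SD, n = 18 libraries each; log2 fold change over the sums 0.54, SE 0.134, adjusted p = 0.0969), and Ftl1 348 ± 76.6 CPM in KI and 279 ± 64.9 CPM in WT (0.31, SE 0.0664, adjusted p = 0.0811).

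The genes named from the other lists had log2 fold changes over the sums on both sides of 0. Smox, spermine oxidase, which releases peroxide, had 0.33 (adjusted p = 0.128), and Cybb, the catalytic subunit of the phagocyte oxidase, 0.61 (adjusted p = 0.242) at 0.573 ± 0.281 CPM in KI and 0.375 ± 0.225 CPM in WT. Gpx7, a peroxidase of the endoplasmic reticulum, had 0.36 (adjusted p = 0.11), and Gpx2 0.25 at under 1 CPM (0.184 CPM in KI, 0.155 CPM in WT). Pex5, the receptor that carries catalase into peroxisomes, averaged 48.0 ± 6.23 CPM in KI and 54.6 ± 7.96 CPM in WT (-0.19, adjusted p = 0.123), and Pex26, a peroxisomal membrane anchor, had -0.20 (adjusted p = 0.222). Glrx, a glutaredoxin, had -0.22 (adjusted p = 0.416) and Sesn2, a sestrin, -0.21 (adjusted p = 0.198). Among selenoprotein synthesis genes, Secisbp2l had -0.10 and Lrp8, the brain receptor for selenoprotein P, 0.08.

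Between the WT regions, genes of all 6 lists were called. By the F test with 48.0% of all genes called, 8 of 12 Nfe2l2 targets, 8 of 14 tested sources, 3 of 4 other glutathione peroxidases and 4 of 8 selenoprotein synthesis genes were called. The shares were lower for the recycling genes (5 of 18) and the import genes (4 of 13).

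The transcript table splits some members into forms. Gpx4 had 3 listed transcripts, at 53.9%, 45.9% and 0.239% of its estimated counts over the 36 libraries. Prdx6 had 3, at 51.6%, 47.6% and 0.834%, and Prdx2 had 2, at 79.2% and 20.8%. The minor Prdx2 form held 18.7% to 21.1% of the counts in KI PFc and 22.4% to 24.8% in WT PFc. In the other regions the ranges overlapped, and in HP the mean share was higher in KI, 21.2% against 20.2%. The form held 17.5% to 21.8% in all KI libraries and 19.2% to 24.8% in all WT libraries. These shares were not tested. Cat, Prdx1 and Prdx3 had 1 listed transcript each. RefSeq lists 2 pseudogenes of Gpx4, 2 of Prdx2, 1 of Prdx1 and 1 of Prdx6, none of them in the expression table, so their reads, if any, could have been counted with the members.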

How the data were processed

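A SMARTER mRNA-seq kit was used for the libraries, per the labels' protocols, and GRCm38.p6 as the build, per the submitters' processing notes. No aligner, counter or strand setting is given in the sources. Estimated counts per gene and per transcript were deposited by the authors (9.88% of gene values were not whole, tolerance 1e-06), with TPM per gene. Their deposited comparison table gives DESeq2's log2 fold changes, per the file headers, and its q-values, also per the file headers. A further 180 per-sample columns were not used.

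Estimated counts were rounded. Genes were filtered with filterByExpr, scaled by TMM, and compared over the whole table by the quasi-likelihood test of edgeR 4.0.16 (R 4.3.3); p-values were adjusted by Benjamini-Hochberg, with 0.05 as the threshold. Each region was fitted on its 6 libraries, and counts were also summed over regions per genotype and title number. The alternatives were DESeq2 1.42.0, its size factors, no filter, a replicate block and leaving out libraries. The KI against WT fits in each region and over the sums, and the test of the WT regions, were tried on simulated data. The test of genotype by region and the fits with region as a term were not. Pseudogenes and overlapping genes come from RefSeq. Figures used matplotlib 3.10.9 in Python 3.11.15.

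All members were named, with the 2 most similar genes of each and, since no pathway gene was called, the 2 largest differences per list. The members and lists were chosen with earlier results of these data known.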

Additional observations from a re-analysis of the deposited data

Results flagged for a closer look

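Gpx1 was higher in every KI library than in every WT library in HP (log2 fold change 0.63) and PFc (0.61), and lower in every KI library than in every WT library in STR (-0.49). Prdx5 was likewise higher in PFc (0.40) and lower in SN (-0.39). These are the members whose genotypes were apart in opposite directions between regions. Differences between single pairs of regions were not tested; the test over all 6 regions gave adjusted p = 0.563 for Gpx1 and 0.66 for Prdx5. Without the libraries short of their own region's markers the Gpx1 values were 0.29 in HP and -0.53 in STR, and the Prdx5 value in SN was -0.34; in PFc, leaving out a single library gave 0.35 at the lowest for Gpx1 and 0.23 for Prdx5.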

How the results depend on the processing

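No member was called between genotypes in HP, Nac, SN or VTA, nor in the test of genotype by region, under any alternative run. Of all genes, DESeq2 called 259 of 11774 in HP, 2 of 17819 in Nac, 990 of 15817 in SN and 185 of 14765 in VTA. It called 33 of 18949 for genotype by region. In edgeR, 838 of 14649 genes were called in VTA without WT VTA 3, and 383 of 14662 in SN without KI SN 3. DESeq2 called 1 member in PFc (2.74% of all genes), 1 in STR (1.38%) and 1 over the sums (8.88%). Leaving out single libraries gave 0 to 1 members in PFc, and the call came without KI PFc 1, where 550 of 14299 genes were called. Region as a term over the libraries with their own markers gave 3 members and 16.7% of all genes, in a fit added after seeing the data. In the WT regions, leaving out a library number gave 3 to 6 members (14.2% to 39% of genes), against 7 with all (48.0%). Over the sums, the direction turned for Gpx1 without WT 3 (-0.01; leave-one-out range -0.01 to 0.07), and for Prdx2 in the leave-one-out fits (-0.08 to 0.05). It also turned for Prdx5 in the leave-one-out fits (-0.13 to 0.08), under the replicate block (0.00), and with region as a term over all 36 libraries (0.02) or over those with their own markers (0.02). The cause was not tested. Of the 54 region values, 28 kept their sign under every alternative, including the 12 with an unadjusted p under 0.05. The labels do not say what a library number marks. Same-numbered KI and WT libraries deviated together in Nac 3 (correlation 0.552) and STR 1 (0.279), and in the other regional pairs the correlation lay between -0.549 and 0.091, so the numbers were not taken as pairs. With the replicate block, 0 members were called in each genotype comparison and 7 in the WT regions (49.9% of genes). Of the genotype comparisons with this block only SN had any gene called, 13 of 14418.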
